A study of Mus musculus with 11 samples.

Results

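Otospheres are floating spheres that grow from dissociated cells of the cochlear sensory epithelium (CSE). The 6 otosphere arrays of this study lie on 2 microarray slides, and the second set, OS4, OS5 and OS6, is compared here with the first set, OS1, OS2 and OS3. The arrays were chosen by their titles and slide alone, and they are 6 of the 11 arrays in the series. The series asked how otospheres differ from the CSE and from embryonic stem cells (ESCs). All 6 otosphere samples were secondary, passage 1 spheres grown without serum in DMEM/F12 with N2, B27, bFGF at 10 ng/ml and IGF1 at 50 ng/ml. The CSE came from ICR mice at postnatal day 1, with 10 mice and 20 cochleae pooled per preparation. Spheres grew for 4 to 5 days before passage and again for 4 to 5 days after it, and a cell strainer then held back the large hollow spheres. No label gives a genotype, treatment or culture condition in which OS4-6 and OS1-3 differ. The batch name follows the slide. CSE1 and CSE2 were on the first slide and CSE3 on the second. The ESC arrays were 1 on each slide, but of different lines, G4-2 (ES1) and D3 (ES2), so that the line and the slide cannot be told apart for ESCs.

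In the newborn organ of Corti, hair cells carry the actin-filled bundles that sense sound, and supporting cells surround them. Hair cells form from a Sox2-expressing prosensory field when the transcription factor Atoh1 switches on, followed by Pou4f3 and Gfi1. Some supporting cells of the newborn cochlea divide and form spheres in culture. Sphere cultures also draw in cells of the surrounding mesenchyme, glia and otic epithelium. Cultured cells of many kinds turn on smooth-muscle-type actin genes, the amino acid and endoplasmic reticulum stress program driven by Atf4, and the inflammatory acute phase program. In whole spheres, fewer cells of a type and less RNA per cell cannot be told apart.

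The values below are normalized log2 intensities of 1 probe per gene, and a difference is the mean of OS4-6 minus the mean of OS1-3 on that log2 scale. In each batch a pair of arrays read almost alike, OS1 of OS2 and OS4 of OS5. Over 17308 bright probes, the SD of the difference between OS4 and OS5 was 0.470 times the spread seen between repeated spots, and that between OS1 and OS2 was 1.09 times. All other pairs of otosphere arrays stood at 2.85 times or more. The gap between OS4 and OS5 was therefore smaller than spot noise, and that between OS1 and OS2 about as large. Each of these pairs was averaged and counted as 1 sample, which leaves 2 samples against 2. Technical duplicates appear in the study's methods, not tied to named arrays, and no label states that the remaining samples came from separate preparations, so the spread between samples may be technical.

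Among the 4 samples, the batches were not tight groups. Over the 42093 probes tested below, the SD of the difference was 0.524 between OS1/2 and OS4/5, which is less than the 0.640 between OS1/2 and OS3 of 1 batch. OS4/5 and OS6 were the closest pair, at 0.501, and OS3 and OS6 the farthest apart, at 0.912. On the first principal component, which held 57.0% of the variance, OS3 lay at -76.2, OS1 and OS2 at -50.1 and -51.4, OS4 and OS5 at 40.4 and 39.6 and OS6 at 97.7. The order of the samples along that axis was OS3, OS1/2, OS4/5, OS6, with OS3 and OS6 at the ends.

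The slides themselves differed. The spike-in controls, RNAs of known amount added to each sample, had a mean log2 signal of 13.24 to 15.37 on the 6 arrays of the first slide and of 11.24 to 11.76 on the 5 of the second, and the slides were scanned on different days. The labels give 50 or 100 ng of RNA per array without saying which sample had which. For otospheres, batch and slide cannot be told apart, and the part of the spike-in level or of the RNA amount in the results was not tested. The CSE arrays give a measure of a slide shift, though with 1 array on the second slide. The share of non-control probes well above background was 58.5 to 68.2% on the otosphere arrays, and no spot was saturated. OS3 had the lowest of these shares. It also had the highest spike-in signal (15.37) and the lowest median signal (68) of all arrays in the series. The part of this in the values of OS3 below was not tested. Of 6 hair cell markers, 5 were well above background on all 3 arrays of OS1-3 and 6 on all 3 of OS4-6. Clearing background does not by itself mark hair cells. The ESC arrays read 8.08 and 7.52 for Myo7a, above all of OS1-3, and 10.08 and 9.94 for Otof. They read lower than OS1 and OS2 for Atoh1 (5.09 on both) and Pou4f3 (6.01 and 5.45). Of 6 supporting cell and prosensory markers, 5 were so in both batches, and Prox1 did not clear background on any array of either. The macrophage marker C1qa and the globin gene Hbb-bt likewise cleared background on none of the 6, and both did on all 3 CSE arrays. Of 4 macrophage markers, 1 cleared it on all 3 arrays of OS1-3 and 2 on all 3 of OS4-6, with Csf1r in both. Csf1r read 10.66 to 11.99 on the otosphere arrays, and 11.06 and 10.95 on the ESC arrays. Of 4 erythroid markers, 3 cleared it on no array of either batch, and Hba-a1 did on 2 of OS1-3 and 3 of OS4-6.

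Across 42093 probes that passed a brightness filter, limma's test with 2 samples against 2 called 0 probes at an adjusted p under 0.05, the smallest adjusted p being 0.173. At an unadjusted p under 0.05 it called 3700 probes higher in OS4-6 and 2340 lower, or 8.79% and 5.56%. With each of the 6 arrays taken as a sample, which counts the near-identical arrays as replicates and makes the p-values too small, 3002 probes (7.13%) were higher and 1541 (3.66%) lower at an adjusted p under 0.05. An exact permutation test of a single gene cannot go below p = 0.333 with 2 against 2, or 0.1 with 3 against 3. A fit of 9 samples in 4 groups, which lends the otospheres the spread of the CSE and of the 2 ESC lines, called 28 of 42077 probes higher (0.0665%) and 24 lower (0.057%).

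Because the test with 2 against 2 called none, genes are described below by whether the 3 arrays of one batch all lay above the 3 of the other with a difference of at least 2-fold. Of 17149 genes, 1044 (6.09%) were higher in OS4-6 by that measure and 1132 (6.6%) lower. These shares are the background for every gene group below, and over all probes they were 3.84% and 4.09%. The same genes fitted with each array as a sample gave 1764 higher (10.3%) and 984 lower (5.74%) at an adjusted p under 0.05. Adjusted p-values quoted for single genes come from that second fit, are limma's, and carry its limit.

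**Figure D1:**
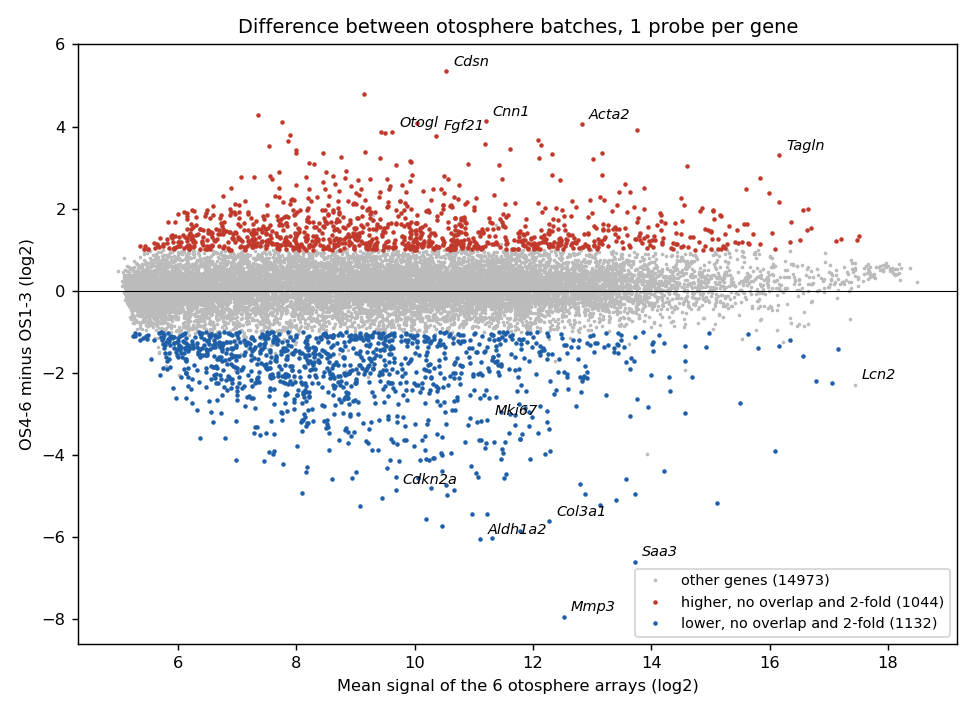
Difference between OS4-6 and OS1-3 (log2, y axis) against the mean log2 intensity over the 6 otosphere arrays (x axis), 1 point per gene. The 1044 genes higher in OS4-6 and the 1132 lower, with no overlap of arrays and at least 2-fold, lie on both sides of 0 over the range of intensities, and the deepest points are on the lower side.

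The differences were not of one size on each side. The called genes had a median difference of 1.35 on the higher side and -1.71 on the lower side. OS6 lay further from OS1-3 than OS4/5 did in 783 of the 1044 higher genes and 1088 of the 1132 lower ones. Taken alone, OS4/5 differed from OS1-3 by 2-fold or more in 837 of the higher and 784 of the lower genes, and OS6 in 988 and 1123. The lower genes were thus mostly lowest in OS6. That OS4/5 then lay between OS1-3 and OS6 was fixed by the rule of no overlap and is not a result. The SD of the difference over genes was 0.799 for otospheres, 0.460 for the CSE across the same slides and 0.886 for the ESC lines. The CSE shift had the same sign and at least 2-fold size in 90 (8.62%) of the higher genes and 37 (3.27%) of the lower ones. Its median was 0.34 over the higher genes and 0.0059 over the lower ones, against 0.07 over all genes.

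The largest differences on the higher side belonged to genes of unlike function. Cdsn encodes corneodesmosin, an adhesion protein of cornified skin, and read 8.98, 8.56 and 6.75 in OS1-3 and 12.76, 12.65 and 13.51 in OS4-6, a difference of 5.35 ± 0.71 (SE, n = 2 samples per batch, as in all differences below; adjusted p = 0.0083). Pth, parathyroid hormone, was well above background on none of OS1-3 and read 9.30, 9.22 and 9.71 in OS4-6. In the main processing it was at least 19.5-fold higher, a bound equal to its measured difference of 4.29. Cyp1a1, a target of the aryl hydrocarbon receptor, read 8.61, 7.65 and 4.99 in OS1-3, where 2 arrays were well above background, and 10.80, 10.91 and 11.85 in OS4-6. In each of these genes OS6 was the highest array, and in Cdsn and Cyp1a1 OS3 was the lowest. That the batches did not overlap was a condition for naming these leading genes. None of the 3 was high in the CSE, whose arrays read 5.75 to 6.33 for Cdsn, 4.59 to 4.95 for Pth and 4.93 to 5.08 for Cyp1a1.

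Several other leading genes on this side encode secreted peptides. Nppb, the B-type natriuretic peptide, read 8.07, 7.93 and 6.80 in OS1-3 and 11.23, 11.23 and 11.32 in OS4-6 (difference 3.87 ± 0.42). Uts2b, a urotensin peptide, was higher by 3.79 ± 0.44 and Edn2, endothelin 2, by 3.65 ± 0.61. Upk3bl, of the uroplakin family, and Popdc2, a membrane protein of muscle, were higher by 3.92 ± 0.71 and 4.08 ± 0.76. Adjusted p-values of these 5 genes ran from 0.0052 for Nppb to 0.02 for Upk3bl.

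**Figure D2:**
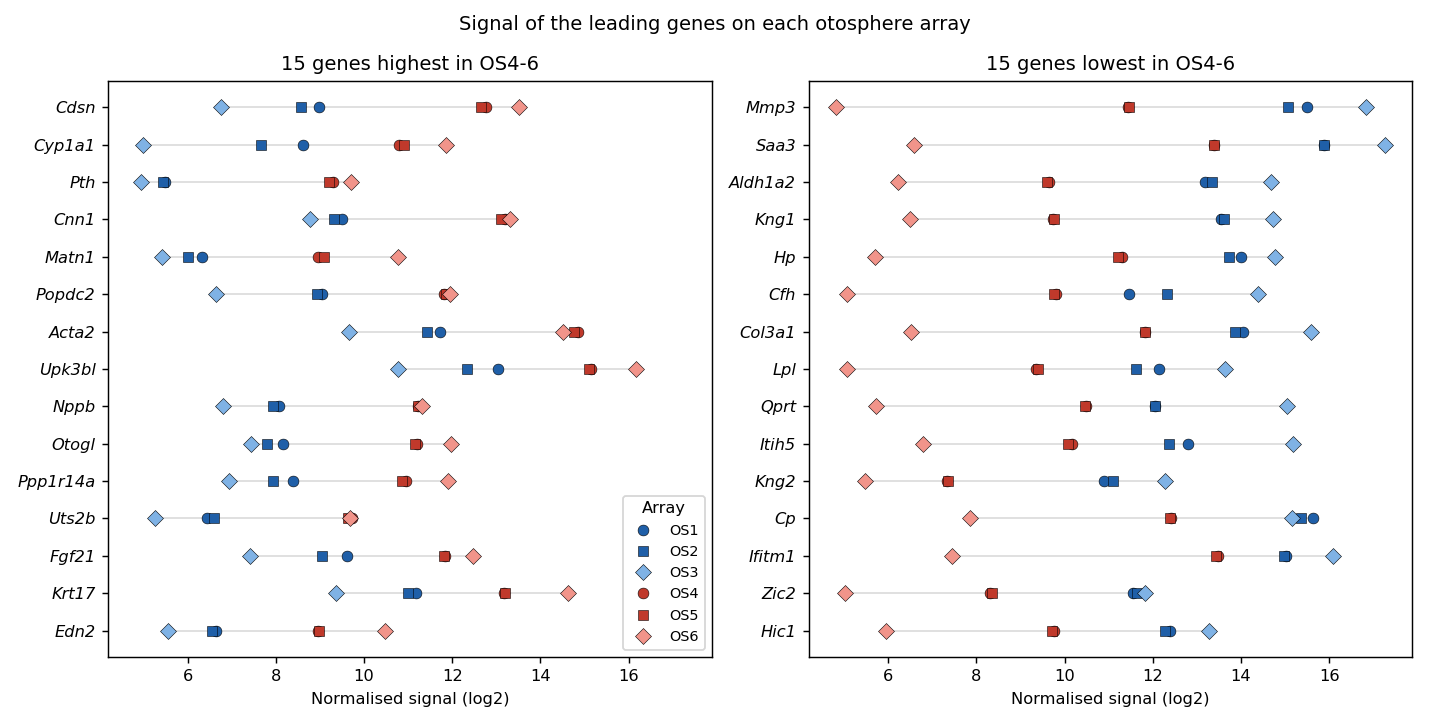
Normalized log2 intensity (x axis) of the 15 genes with the largest difference in each direction, 1 row per gene and 1 point per otosphere array. In the genes lower in OS4-6, OS6 lies far below OS4 and OS5, which overlie each other. In the genes that are higher, OS6 lies close to OS4 and OS5 in some, such as Cnn1 and Nppb, and above them in others, such as Matn1 and Krt17.

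The contractile genes of smooth muscle type were among the clearest groups higher in OS4-6. Of 14 listed and measured genes, 7 were higher with no overlap, 0 were lower, and the median difference was 1.19 against 0.08 over all genes. Cnn1, the actin-binding protein calponin, read 9.50, 9.31 and 8.79 in OS1-3 and 13.20, 13.10 and 13.30 in OS4-6 (4.13 ± 0.28, adjusted p = 0.0018). Acta2, smooth muscle actin, read 11.73, 11.44 and 9.65 against 14.86, 14.77 and 14.52 (4.05 ± 0.64, adjusted p = 0.011). Under the alternative settings listed below, the Acta2 difference ran from 0.40 to 5.01. Tagln, which encodes transgelin, read 15.04, 14.81 and 13.91 against 17.83, 17.67 and 17.69 (3.30 ± 0.37). OS4, OS5 and OS6 lay close together in these 3 genes, and the wider spread was in OS1-3, where OS3 was lowest. Myl9, a myosin light chain, was higher by 2.49 ± 0.23, Lmod1, an actin nucleator, by 1.88 ± 0.21 and Tpm2, a tropomyosin, by 1.77 ± 0.34. Cnn2 was the remaining one, at 1.51. The count was also 7 of 14 with OS6, OS4/5 or OS3 left out.

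Not every smooth muscle gene moved with them. Myh11, the myosin heavy chain that defines mature smooth muscle, read 5.21, 5.31 and 5.34 in OS1-3, where no array was well above background, and 5.56, 5.38 and 5.56 in OS4-6. Des, desmin, did not clear background in OS1-3 either, and Mylk, myosin light chain kinase, differed by -0.29 ± 0.36 with overlapping arrays. The 9 YAP targets, genes induced by spread and tension-bearing cells, held 3 that were higher and 0 lower. These were Ccn2 (2.75 ± 0.29, adjusted p = 0.004), Ccn1 (1.34 ± 0.43) and Ankrd1 (1.03 ± 0.30). Ccn2 and Ccn1 also shifted between slides in the CSE, by 2.01 and 3.64, since CSE3 read far above CSE1 and CSE2. With OS3 left out only 1 of the 9 was still higher.

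Genes of the integrated stress response were higher in OS4-6 in most members. This response is run by the transcription factor Atf4 when amino acids are short or proteins misfold, and its targets supply amino acids and regulate cell survival. Of 22 genes, 18 were higher with no overlap and 0 were lower, and the median difference was 1.92 where the CSE shift was 0.43. By role, 9 of 10 amino acid supply genes, 5 of 7 regulators and 4 of 5 others were higher. The median lay 1.77 above OS1-3 in OS4/5 and 2.08 above in OS6. OS3 itself was low, with a median of -1.26 against OS1/2. Without OS3 the median was 1.42 and 18 genes were higher with 1 lower, and 18 were higher without OS6.

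The members show the same order. Fgf21, a stress hormone of the Fgf family, read 9.62, 9.04 and 7.40 in OS1-3 and 11.84, 11.81 and 12.47 in OS4-6 (3.78 ± 0.66, adjusted p = 0.017). Chac1, which breaks down glutathione, read 12.79, 12.14 and 10.16 against 14.67, 14.55 and 14.72 (3.35 ± 0.74). Trib3, a pseudokinase that restrains Atf4, read 13.19, 12.54 and 11.42 against 14.62, 14.67 and 14.86 (2.61 ± 0.50). In all 3 genes OS3 was the lowest array and every array of OS4-6 lay above OS1, the highest array of OS1-3. Cth, which makes cysteine, was higher by 3.24 ± 0.62, and the serine synthesis genes Phgdh and Psat1 by 2.52 and 2.26. Atf4 itself was higher by 1.53 ± 0.31 (adjusted p = 0.018), Ddit3, the stress factor Chop, by 1.33 ± 0.24, and Nupr1, a stress-induced chromatin protein, by 1.49 ± 0.24. Slc7a11, the cystine transporter, differed by -0.65 ± 0.51 with overlapping arrays. Cebpb, a partner of Atf4 that also serves the acute phase response, read 13.98, 13.76 and 14.02 against 13.24, 13.30 and 12.89, a difference of -0.86 ± 0.24 that was under 2-fold.

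A letter pattern bound by Atf4 together with a C/EBP factor can be seen in the promoters of some of these genes. The 8 letters TTGCATCA, searched on both strands in the 250 bases before each gene's start, were present in 5 of the 19 stress response genes with a promoter sequence in RefSeq (26.3%) and in 0.918% of 27025 promoters. The 5 genes were Fgf21, Chac1, Atf3, Nupr1 and Slc7a11. Slc7a11 holds the letters although it was not higher. In all, 14 patterns were searched, some overlapping each other, and a match of letters is not evidence of binding. The promoters of 3 members that were higher are shown on their own strand, 5′ to 3′, in GRCm38.p6 coordinates, with the match in capitals, and 131, 185 and 102 bases lie between the match and the start.
Fgf21 (chr7:45615491-45615740, minus strand): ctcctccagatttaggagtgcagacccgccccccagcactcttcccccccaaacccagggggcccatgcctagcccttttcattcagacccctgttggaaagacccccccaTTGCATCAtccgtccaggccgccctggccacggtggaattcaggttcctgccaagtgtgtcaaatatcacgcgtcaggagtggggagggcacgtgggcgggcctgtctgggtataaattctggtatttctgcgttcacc
Chac1 (chr2:119350992-119351241, plus strand): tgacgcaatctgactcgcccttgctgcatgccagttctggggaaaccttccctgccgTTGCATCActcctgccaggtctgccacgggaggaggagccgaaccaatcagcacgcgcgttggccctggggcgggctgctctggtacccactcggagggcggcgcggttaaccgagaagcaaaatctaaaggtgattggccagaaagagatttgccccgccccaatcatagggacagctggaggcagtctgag
Nupr1 (chr7:126625471-126625720, minus strand): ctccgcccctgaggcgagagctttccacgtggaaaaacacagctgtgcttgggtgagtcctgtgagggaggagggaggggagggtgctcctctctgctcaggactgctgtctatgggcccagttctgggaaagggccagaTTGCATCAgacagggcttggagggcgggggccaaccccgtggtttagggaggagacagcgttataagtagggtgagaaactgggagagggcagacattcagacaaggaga

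Of 22 measured p53 targets, 7 were higher and 0 lower, with a median of 0.58. The count without OS6 was 4. Mdm2, the ligase that degrades p53, had overlapping arrays and read 13.49, 13.22 and 13.36 in OS1-3 and 13.20, 13.30 and 13.41 in OS4-6. Those that were higher included Gdf15 (3.22 ± 0.79), a secreted stress cytokine, the cell death gene Pmaip1 (3.06 ± 0.45, adjusted p = 0.011) and Cdkn1a (1.31 ± 0.32), the cell cycle inhibitor p21. Gdf15 and Sesn2 also stand on the stress response list. The Cdkn1a difference ran from 0.14 to 1.72 under the alternatives. Of 11 heat shock genes 3 were higher, namely the small chaperones Hspb1 (2.00 ± 0.26) and Cryab (1.96 ± 0.23) and the inducible Hspa1a (2.08 ± 0.52), and 0 were lower.

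Hair cell genes were higher in OS4-6, for many of them at levels below those of the CSE. Of 10 hair cell transcription factors, 5 were higher with no overlap and 0 lower (median 0.98, CSE shift 0.26). Of 32 measured genes of the bundle, transduction channel and synapse, 22 were higher and 0 lower (median 1.33, CSE shift 0.29). The bundle count was 16 without OS3 and 20 without OS6. The study itself singled out hair cell markers on these samples, so the direction of Myo7a, Pvalb, Atoh1 and Pou4f3 is not independent evidence.

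Atoh1, the factor that starts hair cell formation, read 5.62, 5.56 and 4.88 in OS1-3, where 2 arrays were well above background, and 6.88, 6.63 and 7.36 in OS4-6 (1.82 ± 0.35, adjusted p = 0.018). In the CSE it read 9.62, 8.94 and 9.30. Pou4f3, needed for hair cell survival, read 6.70, 6.31 and 5.78 against 7.56, 7.56 and 8.28 (1.78 ± 0.38), and 8.72 to 9.32 in the CSE. Gfi1, which acts with them, had the largest difference of the factors, 7.57, 7.27 and 6.44 against 9.20, 9.08 and 9.69 (2.49 ± 0.40, adjusted p = 0.012). All 3 factors thus stood highest in OS6, lowest in OS3, and below every CSE array on all 6 otosphere arrays. Lhx3 and Insm1 were the other members, at 1.60 ± 0.40 and 1.23 ± 0.32.

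In the bundle and synapse list, 7 of 10 myosin and bundle genes, 7 of 9 tip link and transduction genes, 5 of 9 synapse and channel genes and 3 of 4 calcium buffers were higher. Lhfpl5, a subunit of the transduction channel, read 8.04, 7.32 and 6.58 against 9.28, 9.23 and 10.29 (2.64 ± 0.51). Espn, which bundles the actin of stereocilia, read 9.04, 9.05 and 7.45 against 10.48, 10.40 and 11.03 (2.48 ± 0.57). Its CSE arrays read 9.40, 8.57 and 10.59, a shift of 1.60 between slides, so that OS6 lay above all 3 of them. Chrna10, a subunit of the hair cell acetylcholine receptor, was higher by 2.13 ± 0.34 with a CSE shift of 0.59. Ptprq, a phosphatase of the bundle base, was higher by 2.11 ± 0.44 and lay at -0.39 in the CSE. Myo7a, the bundle myosin used to mark hair cells, read 7.44, 7.30 and 7.22 against 8.52, 8.49 and 8.92 (1.42 ± 0.24, adjusted p = 0.0084). Pvalb, a calcium buffer, read 9.66, 9.34 and 9.33 against 10.06, 10.12 and 10.88 (1.07 ± 0.32, adjusted p = 0.06). These adjusted p-values take each array as a sample, and no gene passed the threshold with 2 samples against 2. CSE levels of Pvalb were 13.56 to 13.93. The ESC arrays read 9.27 and 8.80 for Pvalb and 8.08 and 7.52 for Myo7a. Whrn, a bundle scaffold, differed by -0.15 ± 0.21.

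**Figure D3:**
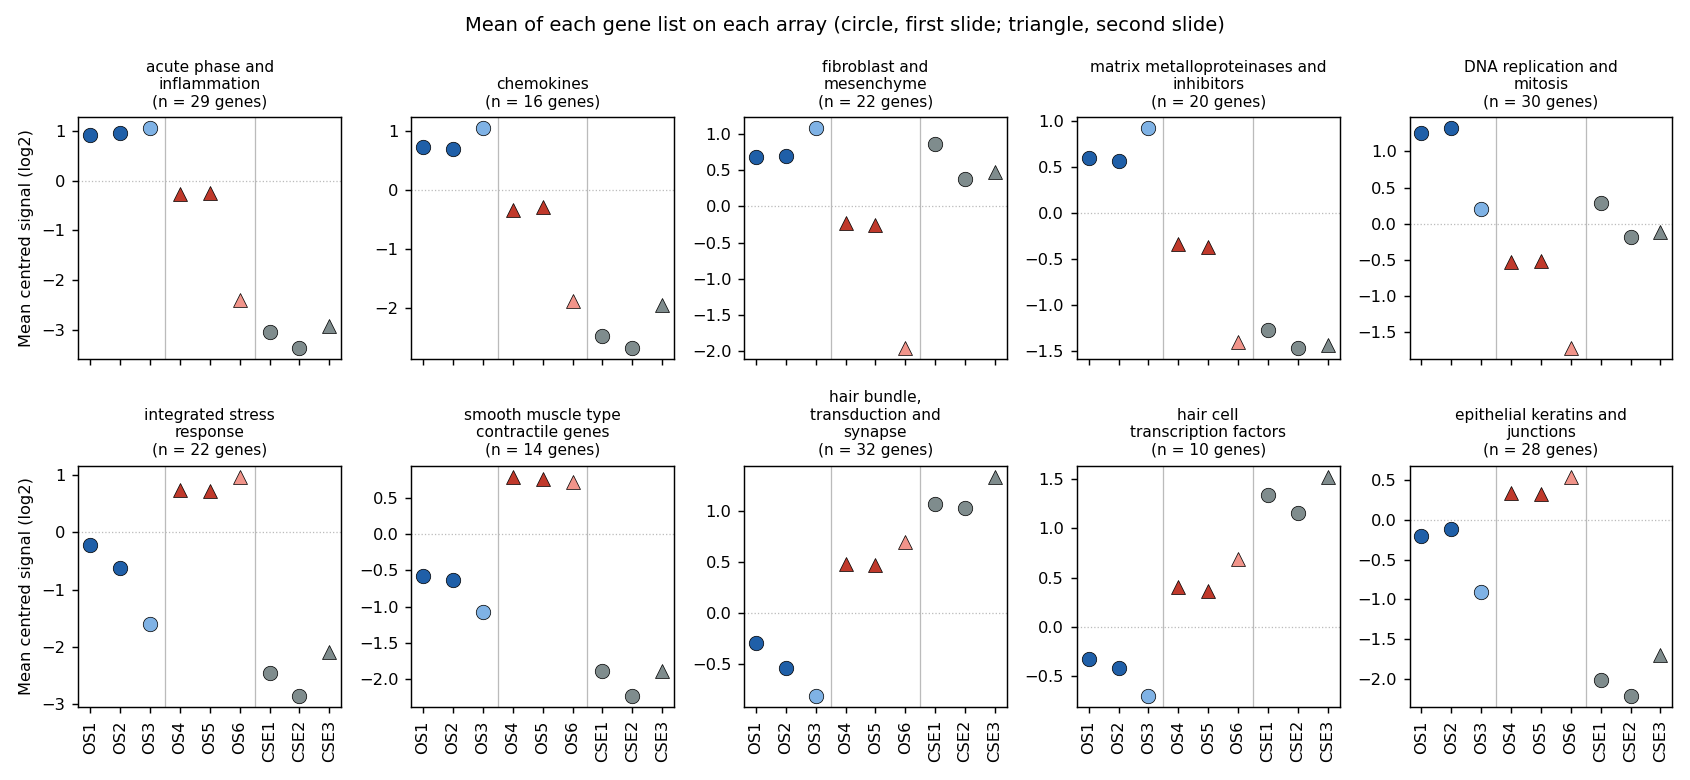
Mean log2 intensity of the members of 10 gene lists on each otosphere and CSE array, each gene centred on its mean over the 6 otosphere arrays (y axis). Hair cell lists lie above 0 in OS4-6 and higher still in the CSE, contractile genes lie above 0 in OS4-6 and far below in the CSE, and the fibroblast list runs from 1.08 in OS3 to -1.96 in OS6.

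Prosensory and supporting cell genes held members of both directions, and their difference from the hair cell lists was not tested. Of 24 measured otic transcription factors, 4 were higher and 1 lower (median 0.40, 19 of 24 above 0), and of 29 supporting cell genes 8 were higher and 3 lower (median -0.01). Sox2, which marks the prosensory field and supporting cells, read 8.06, 7.85 and 7.67 against 8.73, 8.74 and 8.56 (0.84 ± 0.23), a difference under 2-fold. Nes, nestin, was higher by 1.25 ± 0.33, and by 0.84 to 1.66 under the alternatives. The study reports it as lower in OS3 than in the other otospheres, so its direction is not fully independent evidence. The 4 factors that were higher were Otx2 (1.93 ± 0.34), Lmx1a (1.32 ± 0.32), Sox10 (1.20 ± 0.22) and Emx2 (1.09), all of the early ear. Tbx1, a factor of the otic epithelium and mesenchyme, was the lower one at -1.01 ± 0.35.

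Among supporting cell genes, those of the extracellular membranes over the organ stood out. Of 9 measured matrix genes, 5 were higher and 0 lower. Otogl, an otogelin-like protein, read 8.15, 7.80 and 7.44 in OS1-3 and 11.20, 11.15 and 11.98 in OS4-6 (3.86 ± 0.36, adjusted p = 0.0041), which is close to the 11.73, 11.94 and 11.93 of the CSE. Otoa, otoancorin, was higher by 2.38 ± 0.35 and Oc90, an otoconial protein, by 2.73 ± 1.06. Tectb, of the tectorial membrane, read 9.59, 9.21 and 9.08 against 13.05, 12.997 and 10.60, so that here OS6 was nearer to OS1-3 than OS4/5 were. Otor, otoraplin, read 15.87, 16.33 and 14.39 against 14.46, 14.45 and 8.11, with only OS6 apart from the rest.

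Cartilage genes split from bone genes. Of 12 measured cartilage genes, 5 were higher and 1 lower, and of 6 bone genes 0 were higher and 3 lower. Col2a1, the main collagen of cartilage and of otic capsule and epithelium, read 13.66, 13.29 and 12.59 against 15.96, 15.92 and 16.19 (3.03 ± 0.35, adjusted p = 0.0057). Matn1, matrilin 1, was higher by 4.10 ± 0.62, with 2 arrays of OS1-3 well above background, and Col9a2 by 2.41 ± 0.26. Spp1, osteopontin, read 16.20, 15.89 and 15.82 against 12.48, 12.56 and 9.43 (-4.96 ± 0.99, adjusted p = 0.022). It also lay at -2.14 in the CSE shift. Dmp1, a bone matrix protein, differed by -3.62 ± 1.41.

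Of 28 epithelial keratin and junction genes, 10 were higher and 0 lower (median 0.84, CSE shift 0.52). Krt17, a keratin of stressed epithelium, read 11.19, 10.99 and 9.36 against 13.19, 13.20 and 14.63 (3.69 ± 0.73). Pkp1, a desmosome protein, was higher by 2.60 ± 0.49 and Krt19 by 2.01 ± 0.44. The simple epithelial keratins Krt8 and Krt7 were higher by 1.48 ± 0.45 and 1.34 ± 0.43. With OS3 left out, 4 of 28 were higher. The basal keratin Krt14 (0.02 ± 0.23), the basal cell factor Trp63 (0.08 ± 0.56) and the adhesion molecule Epcam (0.25 ± 0.25) had overlapping arrays.

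The genes lower in OS4-6 opened with acute phase proteins, matrix proteases and mesenchymal genes, and most of these were at their lowest in OS6. Mmp3, the protease stromelysin, read 15.50, 15.07 and 16.84 in OS1-3 and 11.43, 11.45 and 4.82 in OS4-6, where 2 arrays were well above background (-7.93 ± 2.12, adjusted p = 0.06). Saa3, serum amyloid A3, read 15.88, 15.87 and 17.27 against 13.38, 13.39 and 6.57 (-6.59 ± 2.17, adjusted p = 0.11). Aldh1a2, which makes retinoic acid in mesenchyme, read 13.19, 13.33 and 14.68 against 9.65, 9.60 and 6.22 (-6.05 ± 1.16, adjusted p = 0.022). In these genes OS3 was the highest array and OS6 the lowest. The gap between OS4/5 and OS6 was wider than that between OS1-3 and OS4/5 in Mmp3 and Saa3, and their standard errors were large. In the CSE Aldh1a2 read 12.04 to 12.28, near OS1-3, and Mmp3 4.98 to 6.30, near OS6.

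Acute phase and inflammation genes were lower in 21 of 29 measured members, with 1 higher (median -2.29). The median was -1.02 in OS4/5 and -3.19 in OS6, and 15 were lower with OS6 left out. Of 14 acute phase proteins 12 were lower, of 7 regulators 6, and of 8 cytokines and enzymes 3. Hp, haptoglobin, read 14.00, 13.72 and 14.78 against 11.31, 11.22 and 5.69 (-5.84 ± 1.77, adjusted p = 0.087). Cp, the ferroxidase ceruloplasmin, read 15.63, 15.36 and 15.17 against 12.41, 12.38 and 7.85 (-5.21 ± 1.43). Saa1 differed by -4.70 ± 1.01 (adjusted p = 0.031), complement C3 by -4.39 ± 1.37 and Lbp, which binds lipopolysaccharide, by -4.44. The C3 difference ran from -6.57 to -0.44 under the alternatives. The kininogens Kng1 and Kng2, outside this list, differed by -6.03 ± 1.09 and -5.23 ± 0.73.

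Il33, an alarmin cytokine, was a member in which OS6 did not stand apart, reading 13.12 in the mean of OS1 and OS2 and 14.11 in OS3 against 10.72, 10.74 and 10.89 in OS4-6 (-2.80 ± 0.37, adjusted p = 0.0066). Lcn2, lipocalin 2, showed the opposite case, 18.12, 18.51 and 18.07 against 18.19, 18.05 and 13.69, so that OS6 alone was low. Ptgs2, cyclooxygenase 2, was the 1 member that was higher, 9.88, 9.70 and 8.56 against 11.16, 11.14 and 12.18 (2.49 ± 0.54). Of 12 measured macrophage and leukocyte genes, 0 were higher and 3 lower, and the mean over that list was 0.03, 0.05 and 0.55 in OS1-3 and -0.16, -0.15 and -0.33 in OS4-6, highest in OS3 and lowest in OS6 as in many acute phase genes. Its defining gene C1qa was not well above background in either batch, while Csf1r was on all arrays of both. Their part in the result was not tested.

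The promoters of the acute phase genes often hold the pattern TTGCNNAA, the core of the site for C/EBP factors. On both strands of the 250 bases before the start it was present in 12 of the 21 genes with a sequence (57.1%) and in 10.8% of all promoters. Lcn2 and Ptgs2 were among the 12, so the pattern was not limited to genes that were lower. The promoters of 3 lower members follow, with the match in capitals. The Saa3 match lies on the opposite strand, and 91, 174 and 37 bases lie between the match and the start.
Saa3 (chr7:46715677-46715926, minus strand): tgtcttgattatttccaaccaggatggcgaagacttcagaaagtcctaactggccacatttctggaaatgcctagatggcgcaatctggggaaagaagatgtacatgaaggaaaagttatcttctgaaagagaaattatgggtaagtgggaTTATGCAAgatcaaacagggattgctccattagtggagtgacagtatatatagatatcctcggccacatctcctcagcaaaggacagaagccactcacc
Saa1 (chr7:46742981-46743230, minus strand): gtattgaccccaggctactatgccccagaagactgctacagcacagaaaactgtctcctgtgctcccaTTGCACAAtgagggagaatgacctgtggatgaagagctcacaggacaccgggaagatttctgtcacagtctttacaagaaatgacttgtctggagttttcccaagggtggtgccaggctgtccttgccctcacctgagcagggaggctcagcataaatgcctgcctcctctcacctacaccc
C3 (chr17:57228137-57228386, minus strand): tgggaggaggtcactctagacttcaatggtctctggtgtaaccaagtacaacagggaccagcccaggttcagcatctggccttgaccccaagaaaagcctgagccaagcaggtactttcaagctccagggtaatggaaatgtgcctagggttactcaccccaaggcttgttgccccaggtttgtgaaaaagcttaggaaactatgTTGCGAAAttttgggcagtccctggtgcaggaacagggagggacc

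Chemokines, which draw leukocytes, were lower in 9 of 16 measured genes and higher in 0 (median -1.23, CSE shift 0.48). Without OS6 the count was 6. Ccl8 read 9.83, 9.71 and 10.91 against 6.70, 6.64 and 5.18 (-4.41 ± 0.62, adjusted p = 0.0089), with 2 arrays of OS4-6 well above background. Ccl11, eotaxin, differed by -4.92 ± 0.90 and Cxcl5 by -4.54 ± 1.23. Ccl2 read 13.76, 14.00 and 12.87 against 11.83, 11.77 and 9.94 (-2.51 ± 0.69), while the CSE shift was 2.12 in the opposite direction. The Ccl2 difference ran from -4.68 to -0.24 under the alternatives.

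Of 20 matrix metalloproteinases and inhibitors, 10 were lower and 1 higher (median -1.32). The count was also 10 with OS6 or OS3 left out. Adamts4, an aggrecanase, read 9.95, 10.02 and 10.48 against 6.76, 6.77 and 5.10 (-4.30 ± 0.57, adjusted p = 0.0081). Mmp13, a collagenase, read 8.85, 9.87 and 8.42 against 5.81, 5.70 and 5.08 (-3.47 ± 0.41, adjusted p = 0.0075). Mmp2, a gelatinase, and the inhibitor Timp1 differed by -3.19 ± 0.88 and -3.05 ± 0.80. Adamts5 was the higher one at 1.04 ± 0.48, and its other probe lay at -0.11.

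Fibroblast and mesenchyme genes were lower in 15 of 22 measured members and higher in 1, with a median of -2.08 against a CSE shift of -0.14. The median was -1.32 in OS4/5 and -2.90 in OS6, and 13 were lower with OS6 left out. Of 12 matrix genes 8 were lower, of 7 transcription factors 5, and of 3 receptors and surface proteins 2. Col3a1, collagen III, read 14.04, 13.87 and 15.59 against 11.83, 11.82 and 6.51 (-5.61 ± 1.74, adjusted p = 0.098). In the CSE it read 14.94, 14.51 and 14.11. Col1a2, collagen I, read 15.13, 15.20 and 15.89 against 13.30, 13.30 and 8.61 (-4.57 ± 1.49). Twist1, a mesenchymal transcription factor, read 9.53, 9.26 and 10.07 against 7.37, 7.35 and 5.65 (-3.22 ± 0.60, adjusted p = 0.02). Pdgfrb, a receptor of pericytes and fibroblasts, differed by -3.88 ± 1.45 with 2 arrays of OS4-6 well above background.

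The mesenchymal list was not lower throughout. Dcn, decorin, read 15.74, 15.82 and 16.93 against 15.37, 15.25 and 15.51, a difference of -0.95 ± 0.42. Lum, lumican, read 14.77, 15.03 and 14.39 against 15.24, 15.24 and 15.05 (0.50 ± 0.26). Thy1, a surface protein of fibroblasts and neurons, was the 1 higher member, 11.52, 11.76 and 11.10 against 13.26, 13.26 and 12.76 (1.64 ± 0.31, adjusted p = 0.011). These proteoglycans therefore stayed near the OS1-3 level in OS6 where collagens I and III did not. The mean over the list was 0.68, 0.70 and 1.08 in OS1-3, -0.23, -0.26 and -1.96 in OS4-6 and 0.87, 0.38 and 0.48 in the CSE.

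Genes of DNA replication and mitosis were lower in 26 of 30 measured members and higher in 0, the largest share on this side among the 47 lists. The median was -2.08, with -1.37 in OS4/5 and -2.67 in OS6, and the CSE shift was -0.14. All 14 measured mitosis genes were lower, 10 of 13 replication genes and 2 of 3 regulators. Mki67, the proliferation marker, read 12.97, 13.01 and 12.07 in OS1-3 and 10.59, 10.52 and 8.21 in OS4-6 (-3.15 ± 0.81, adjusted p = 0.038). Top2a, topoisomerase II, read 10.82, 10.92 and 9.31 against 8.18, 8.22 and 5.99 (-2.99 ± 0.86). Ccnb1, cyclin B1, read 11.91, 11.67 and 10.85 against 9.42, 9.43 and 7.76 (-2.73 ± 0.63), and the mitotic kinase Plk1 differed by -2.66 ± 0.67. Unlike the inflammatory and mesenchymal genes, these genes were lower in OS3 than in OS1/2, with a median of -1.08 between them, so that OS1/2 stood highest. The count was 22 without OS6, 29 without OS3 and 19 without OS1/2. Tyms, thymidylate synthase, differed by 0.13 ± 0.39 with overlapping arrays. The 3 probes of Cdk1 ranged from -2.37 to 0.36, and the brightest gave the value of -2.37.

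Cell cycle promoters commonly hold CCAAT, the site of the factor NF-Y. It was present on either strand in 20 of the 25 genes of this list with a sequence (80%) and in 37.5% of all promoters. It was also in 7 of 11 contractile genes (63.6%) and 11 of 19 stress response genes (57.9%), lists that were higher in OS4-6. TTTGAA, part of the element that times mitotic genes, was in 8 of 25 (32%) against 18.3%. The promoters of Ccnb2, cyclin B2, which differed by -2.61 ± 0.70, and of Top2a hold 3 and 6 matches of CCAAT or its reverse, shown in capitals.
Ccnb2 (chr9:70421555-70421804, minus strand): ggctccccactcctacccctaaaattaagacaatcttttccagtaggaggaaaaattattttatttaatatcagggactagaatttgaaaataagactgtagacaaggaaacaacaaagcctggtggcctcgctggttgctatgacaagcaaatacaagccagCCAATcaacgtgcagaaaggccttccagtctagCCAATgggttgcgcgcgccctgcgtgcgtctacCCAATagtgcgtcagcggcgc
Top2a (chr11:99024190-99024439, minus strand): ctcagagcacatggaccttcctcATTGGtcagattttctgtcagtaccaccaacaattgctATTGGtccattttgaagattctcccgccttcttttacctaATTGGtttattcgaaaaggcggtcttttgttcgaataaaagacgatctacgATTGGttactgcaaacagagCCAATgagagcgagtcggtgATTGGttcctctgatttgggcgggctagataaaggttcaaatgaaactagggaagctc

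Among 10 inhibitors of cyclin-dependent kinases and D cyclins, 4 were lower and 2 higher. Cdkn2a, whose locus gives the p16 and Arf proteins that build up in cultured cells, read 11.80, 11.79 and 12.06 in OS1-3 and 8.24, 8.22 and 5.94 in OS4-6 (-4.84 ± 0.74, adjusted p = 0.011). Its 2 probes gave -4.84 and -3.01. CSE arrays read 5.09 to 5.66 for it, so OS6 was near the tissue. Cdkn2c, Cdkn2b and Ccnd2 differed by -2.02, -1.47 and -1.14. Cdkn1c, the p57 inhibitor, read 11.86, 11.70 and 11.89 against 13.20, 13.21 and 14.54 (2.04 ± 0.46), toward the CSE level of 15.60 to 15.89, and Cdkn1a was higher as given above.

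Genes tied to the 2 growth factors of the medium were also compared. They were feedback targets of Fgf signalling and, for Igf, ligands, receptors and binding proteins, which are not targets. Of 10 feedback targets of Fgf signalling, 5 were lower and 0 higher (median -0.78, CSE shift -0.03). Dusp6, a phosphatase that shuts off Erk, read 13.81, 13.44 and 13.39 against 12.14, 12.21 and 11.53 (-1.66 ± 0.29, adjusted p = 0.012). Etv4, a transcription factor downstream of Fgf, read 11.89, 11.67 and 11.68 against 10.59, 10.57 and 9.91 (-1.48 ± 0.29, adjusted p = 0.015). Spry4 and Etv1 differed by -2.08 ± 0.62 and -2.37 ± 0.69. In the Igf system, 2 of 11 genes were higher and 4 lower. Igfbp2, a binding protein of epithelium, read 11.83, 12.05 and 12.62 against 14.87, 14.86 and 14.49 (2.40 ± 0.31, adjusted p = 0.0052) and the receptor Igf1r was higher by 1.45 ± 0.22. The ligand Igf1 differed by -2.90 ± 1.03 and Igfbp7 by -2.24 ± 0.42.

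The glial list held genes of both directions, 3 higher and 5 lower of 19. Ngfr, the p75 receptor of immature glia and of pillar cells, read 11.17, 11.26 and 10.43 against 8.16, 8.08 and 7.25 (-3.14 ± 0.42, adjusted p = 0.0063). The Ngfr difference ran from -3.58 to -0.30 under the alternatives. Foxd3, a neural crest factor, read 8.09, 7.90 and 7.40 in OS1-3 and was well above background on none of OS4-6, at least 5.76-fold lower in the main processing. Cdh19, a Schwann precursor cadherin, was likewise not above it there, at least 3.0-fold lower in the main processing. Sox10, which glia share with the otic epithelium, was higher instead, 12.48, 12.62 and 12.29 against 13.60, 13.56 and 13.66, as were Erbb3 (1.26 ± 0.28) and Mal (1.95 ± 0.25), a membrane protein of myelin and of epithelium.

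**Figure D4:**
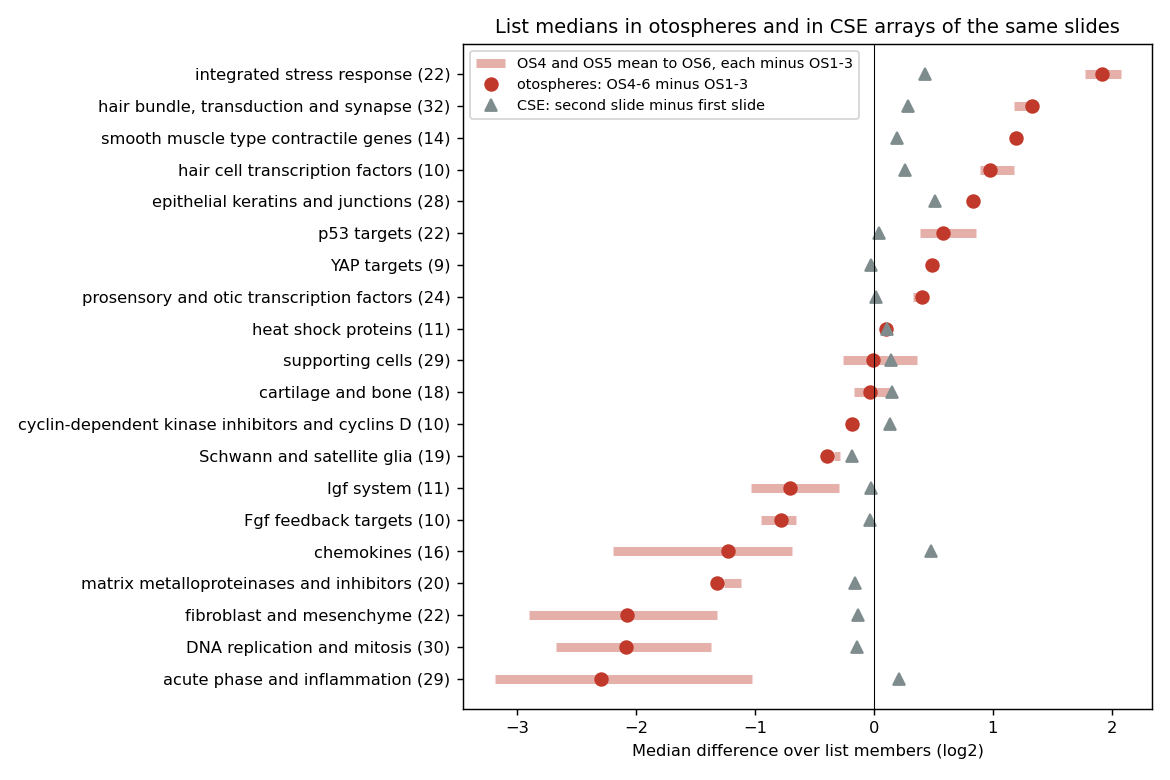
Median difference between OS4-6 and OS1-3 over the measured members of 20 gene lists (log2, x axis), shown as a dot, with a bar from the value of OS4/5 to that of OS6 and a triangle for the shift of the CSE between the same slides. Stress response (1.92), hair bundle (1.33) and contractile (1.19) lists lie to the right with short bars, and acute phase (-2.29), mitosis (-2.08) and fibroblast (-2.08) lists lie to the left with long bars reaching toward OS6.

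The shift of the CSE between slides was mostly smaller than these differences. Among the lists where it was larger were spiral ganglion neurons (median -1.04, otospheres 0.01), nuclear retained RNAs (-1.70, otospheres -0.55) and immediate early genes. Over 21 immediate early genes, which respond to handling within minutes, the CSE shift had a median of 2.45. The otosphere difference had one of 0.45, with 7 genes higher and 2 lower. Without OS3 the otosphere median was 0.0083, with 5 higher and 3 lower. Fos read 6.91, 5.57 and 13.84 in CSE1, CSE2 and CSE3. In otospheres it read 11.75, 12.15 and 10.66 in OS1-3 and 11.28, 11.33 and 10.01 in OS4-6. CSE3 is the 1 CSE array on the second slide, so for this list a difference of that sample and a slide shift cannot be told apart. The difference between the otosphere and CSE shifts, tested for each probe with the pairs averaged, passed an adjusted p under 0.05 in 0 probes (smallest 0.365), and 2567 probes had an unadjusted p under 0.05.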

How the data were processed

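Total RNA of 11 samples was labelled with Cy3 and hybridised to 1-colour SurePrint G3 Mouse 8x60K arrays on 2 slides, and the deposited scanner files hold the linear intensity of each of 62976 spots, extracted by the authors with Feature Extraction 10.7.3.1 and not normalized between arrays. The deposited log2 table of the authors, which holds their processed log2 values (the submitters' processing notes name limma), served as an alternative.

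Median spot intensity was corrected by the local background with normexp (offset 16), log2 transformed and quantile normalized over the 11 arrays with limma 3.58.1 in R 4.3.3. Control and outlier-flagged spots were removed, and spots of 1 probe were averaged. Probes were kept that exceeded the 95th percentile of 308 negative control spots by 10% on at least 3 of the 6 otosphere arrays. RefSeq accessions (GRCm38.p6) named 26762 of 55681 probes, and 22530 of the 42093 kept. Of the probes of a gene, the one with the highest mean over the otosphere arrays was used. In 1322 of 4492 genes with more than 1 kept probe, the probes differed in sign.

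OS1 was averaged with OS2, and OS4 with OS5, and the batches were compared with lmFit and eBayes on otospheres alone, with Benjamini-Hochberg adjustment over all kept probes. The scripts were tested on simulated data. The number of arrays limits the precision. A bound ("at least N-fold") sets the brighter batch's mean against the mean over arrays of the higher of the dim probe's value and the lowest value among probes well above background.

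Named genes were the 15 with the largest difference per direction among those with no overlap, an unadjusted p under 0.05 and all 3 arrays of the higher batch well above background, up to 6 members per described list with the largest difference, its defining members, and Nes, Myo7a, Pvalb, Atoh1, Pou4f3 and Sox2. The study names all of these last genes except Sox2 for particular otosphere arrays. Fos, Dcn, Lum, Trp63, Epcam, Krt14, Mdm2, Ccnb2, Nupr1 and other members with overlapping arrays or a promoter shown were chosen after their values were seen. The members, the 47 gene lists and the letter patterns were chosen with earlier results of these data known. Alternatives were other offsets, scaling, filters, the deposited table, every array as a sample, all groups in 1 fit, slide as a block and each array or pair left out.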

Additional observations from a re-analysis of the deposited data

Results flagged for a closer look

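For the acute phase and inflammation list, the otosphere difference and the shift of the CSE between the same slides had opposite signs, with medians of -2.29 and 0.21. The same held for chemokines, with -1.23 and 0.48. Whether the shifts differ was not tested for the lists. Both the otosphere batches and the CSE rest on few samples, and CSE3 alone stands for the second slide.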

How the results depend on the processing

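The direction of 137 of 140 named genes was the same under all 19 alternatives. The exceptions arose with slide as a block in a fit of all 4 groups, where Tbx1 stood at 0.64, Hsp90aa1 at -0.53 and Crim1 at -0.20, and the cause was not tested. Sizes were less steady than directions. The value nearest 0 under any alternative was 0.40 for Acta2, against 4.05 in the main processing. It was -0.44 for C3, -0.30 for Ngfr, -0.24 for Ccl2 and 0.14 for Cdkn1a. All of these values, with that of Acta2, came from the deposited log2 table. Other genes held their size, such as Cnn1 (3.82 to 4.98) and Otogl (3.46 to 4.27). Counts of probes moved as well. With every array as a separate sample, 3002 probes were higher and 1541 lower at an adjusted p under 0.05, 7298 and 4365 at an unadjusted one, and 10 and 4612 probes differed between the otosphere and CSE shifts. The near-identical arrays count as replicates there. All 4 groups in 1 fit gave 28 and 24 adjusted calls, and the slide block 1820 and 1449 unadjusted ones.

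With 1 array left out, no probe passed an adjusted p under 0.05, while 1322 (without OS6) to 3799 probes were higher and 1043 (without OS6) to 2429 lower at an unadjusted one. Without both OS4 and OS5, 22 probes were higher and 266 lower after adjustment, and 2050 were higher unadjusted. Without both OS1 and OS2, 5366 were higher and 3665 lower unadjusted. Genes higher with no overlap and 2-fold numbered 850 without OS3 and 1593 without OS1 and OS2, and genes lower 832 without OS6 and 1571 without OS4 and OS5. Of the comparison with the CSE, 1699 probes without CSE2 and 3270 without CSE1 had an unadjusted p under 0.05, and 0 an adjusted one.

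The scanner's processed signal scaled to the 75th percentile, which changes both the background correction and the normalization, brought the share of higher probes among unadjusted calls from 61.3% to 53.01%, and leaving out OS4 and OS5 to 48.1%. No paired analysis was possible because the batches share no replicate numbers. Signal near background limits the genes dim in one batch, such as Pth, Foxd3 and Cdh19, to a bound. These bounds hold for the main processing only. Under the alternatives the difference ran from 3.40 to 6.44 for Pth, from -5.60 to -1.97 for Foxd3 and from -3.82 to -1.07 for Cdh19.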

Other observations

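Some groups varied between samples in a way that cut across the batches. Of 5 measured RNAs that are retained in the nucleus, 1 was higher in OS4-6, and the mean over the list was -0.34, -0.65 and 1.00 in OS1, OS2 and OS3 and -0.22, -0.26 and 0.47 in OS4, OS5 and OS6. In the CSE it was -1.59, 0.84 and -1.78. OS3, OS6 and CSE2 were the high arrays, 2 of them on the first slide. Neat1, a scaffold RNA of nuclear paraspeckles, read 13.08, 12.87 and 14.57 in OS1-3, 13.08, 13.05 and 13.97 in OS4-6 and 7.64, 10.20 and 7.23 in the CSE. Meg3, an imprinted noncoding RNA, read 8.78, 8.42 and 9.39 against 10.10, 10.12 and 11.51, and 13.42 in CSE2 against 10.50 and 9.31 in CSE1 and CSE3.

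Neuronal genes were mixed. Of 19 measured genes of spiral ganglion neurons, 2 were higher and 3 lower. Their median difference was 0.01, where the CSE shift was -1.04. Gap43, a growth cone protein, read 11.85, 11.82 and 12.37 in OS1-3 and 9.19, 9.19 and 5.88 in OS4-6 (-4.56 ± 1.06), and the neurotrophin receptor Ntrk2 read 13.23, 13.28 and 13.74 against 10.96, 11.05 and 9.38, with probes from -4.30 to -1.14. Tubb3, the neuronal tubulin, went the other way, 7.21, 6.69 and 7.03 against 8.69, 8.71 and 8.57 (1.65 ± 0.21), below the CSE arrays at 11.27 to 12.59.

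Interferon and antigen presentation genes also held both directions, 3 higher and 7 lower of 28, and 3 lower without OS6. Psmb8, an immunoproteasome subunit, read 10.93, 11.04 and 10.72 against 9.61, 9.65 and 8.14, whereas Ifit1, an antiviral protein, read 7.60, 7.90 and 8.04 against 9.29, 9.30 and 9.85 (1.67 ± 0.28). Of 14 antioxidant genes under Nrf2, 0 were higher and 0 lower. Hmox1, heme oxygenase, read 9.73 and 9.37 in OS1 and OS2 but 12.11 in OS3, beside 12.19, 12.10 and 12.72 in OS4-6. Of 11 imprinted growth genes, 5 were higher and 0 lower, Grb10 among them at 1.57 ± 0.29.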
